A study of Mus musculus with 10 samples.

Results

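Of 3126 alternative splicing events measured in 10 mouse tissues, 77 had a skipping junction that stood well above the inclusion junctions in every tissue. The 77 were selected on measured values. Both flanking exons, C1 and C2, had to read 2.1 or more in all 10 tissues, and the junction index had to be -0.5 or less in all 10. The junction index is the mean of the inclusion junctions C1:A and A:C2 minus the skipping junction C1:C2, where A is the alternative exon. Of the 656 events that met the condition on the flanks, 579 did not meet the one on the index and serve below as the other events. Of those, 125 had an index of 0.5 or more in all tissues, and they stand below for mostly included exons.

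Each sample was total RNA pooled from mice of the outbred CD1 strain, from testis, spleen, brain, liver, kidney, heart, muscle, lung, intestine or salivary. The labels give neither the age of the animals nor how many were pooled, and no group received a treatment. There was 1 sample per tissue and so no replicate, which means that no value below has an error and no difference between tissues was tested. Values are in the units of the deposited scale, which runs from 0 to 8.66 with a base that is not stated. Array medians lay between 2.04 and 2.19 before the arrays were centred on a common median, and from 0.635% to 3.33% of probes in an array were listed at 0. The table pairs event numbers with neither genes nor probe sequences, so events are named by number and the tissue labels could not be set against marker genes.

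A cassette exon lies between a pair of flanking exons and is either joined to both or left out when the transcript is spliced. The choice depends on the strength of its splice sites and on proteins that bind the transcript, such as SR proteins and hnRNPs, whose mix differs between tissues. An exon that is left out in most cells can be a recent one with weak splice sites, or one that a regulator includes only in a particular tissue or stage. On an array of this kind, inclusion raises the probe in the exon body and the probes across both of its junctions, whereas skipping raises the probe that joins the flanking exons directly.

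The exon-body probe A took no part in the selection, and it was low in the 77 events. Its median over tissues was 1.45 for the typical member (middle 50% of members 0.809 to 2.16), against 3.13 for the other events (2.52 to 3.78) and 3.45 for mostly included exons. The flanking exons were as bright in the members as elsewhere, at 3.69 for C1 and 3.64 for C2 against 3.47 and 3.45 in the other events. The body index, the value of A less the average of both flanking exons, was therefore -2.16 in the typical member and -0.256 in the typical other event. It holds the flanks, which the selection used, but A alone gives a gap of the same order. In each tissue the median of A was lower in the members, with a difference from the others of -1.43 units in salivary, the smallest, to -1.94 units in liver.

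**Figure D1:**
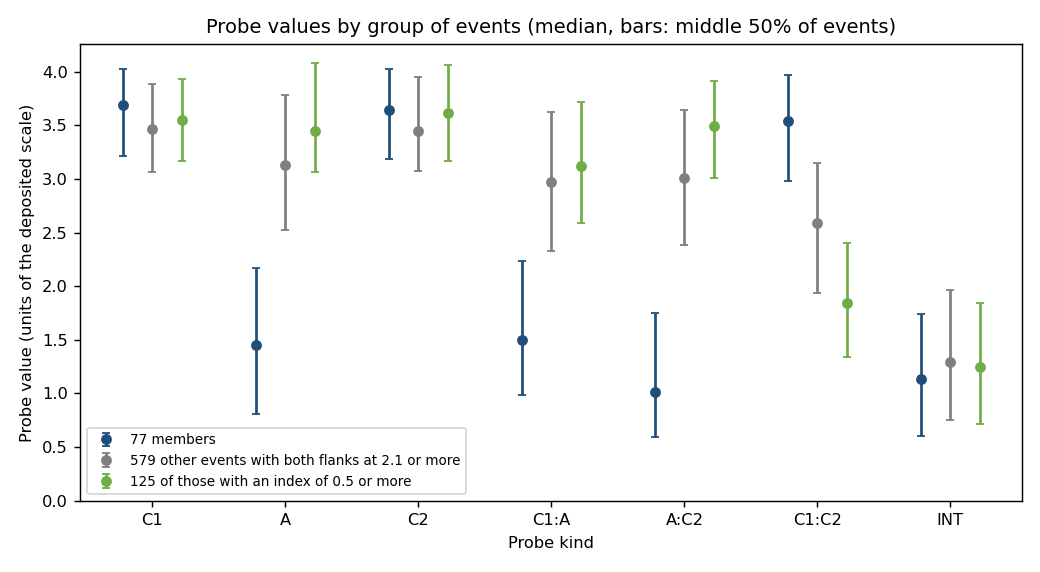
Median probe value over events for each of the 7 probe kinds, in units of the deposited scale, with bars over the middle 50% of events; each event enters with its median over the 10 tissues. The members (77 events) lie close to the other 579 events in C1 and C2 and lie lower in A, which was not used to choose them; C1:A, A:C2 and C1:C2 were used.

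The label of mostly skipped exons therefore held for the exon body in most, but not all, of the set. A was below both flanking exons in all 10 tissues in 63 of the 77 members (81.8%), against 144 of the 579 other events (24.9%). The body index was below 0 in every tissue in 68 members and at -0.5 or less in every tissue in 55, against 228 and 79 of the others. The response of each probe is not given in the sources used here, so an index gives an order among probes of an event and not the share of transcripts that skip the exon.

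The INT probes, whose target the sources used here do not state, were the dimmest kind on the array, with a median of 1.21 and a 95th percentile of 3.14 over all events. In 32 members (41.6%) the median of A was no higher than that median of INT, against 18 of the others (3.11%). In 74 members it was no higher than the 95th percentile, against 294 of the others. No member kept A above that percentile in all 10 tissues, whereas 98 of the other events did. Of the 770 values of A in the members, 33 (4.29%) were listed at 0 as deposited, against 12 of 5790 (0.207%) in the other events. Many members had an exon-body signal within the range of the dimmest probe kind on the array.

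INT itself, also outside the selection, was 1.13 in the typical member and 1.29 in the typical other event. Its median was lower in the members in 9 of 10 tissues, with the widest difference, -0.294 units, in muscle, and it was 0.0076 units higher in salivary. The gap in A was thus larger than the gap in INT in every tissue. The highest INT medians among the members were those of Ben4103, at 2.95, and Ben3003, at 2.80. In Ben4103 INT ran from 1.04 to 3.52 over tissues and A from 0.985 to 2.75.

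The values that chose the members are given here as a description. The median junction index was -2.06 for the typical member (middle 50% -2.53 to -1.56), and it ran from -3.62 to -0.956. It was at -3 or less in 5 members, above -3 and up to -2 in 36, above -2 and up to -1 in 34, and above -1 in 2. The median body index followed this order over the first 3 of these groups, at -3.86, -2.43 and -1.70. Both of its parts moved, with medians of 0.788, 1.28 and 1.59 for A and 4.02, 3.86 and 3.44 for the mean of the flanks. The skipping junction was about as bright as the flanking exons, 0.123 units below their mean in the typical member, against 0.894 units below in the other events. Of the inclusion junctions, C1:A was at 1.5 and A:C2 at 1.01 in the typical member. C1:A was the brighter one in 54 of the 77 members and in 284 of the 579 other events.

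**Figure D2:**
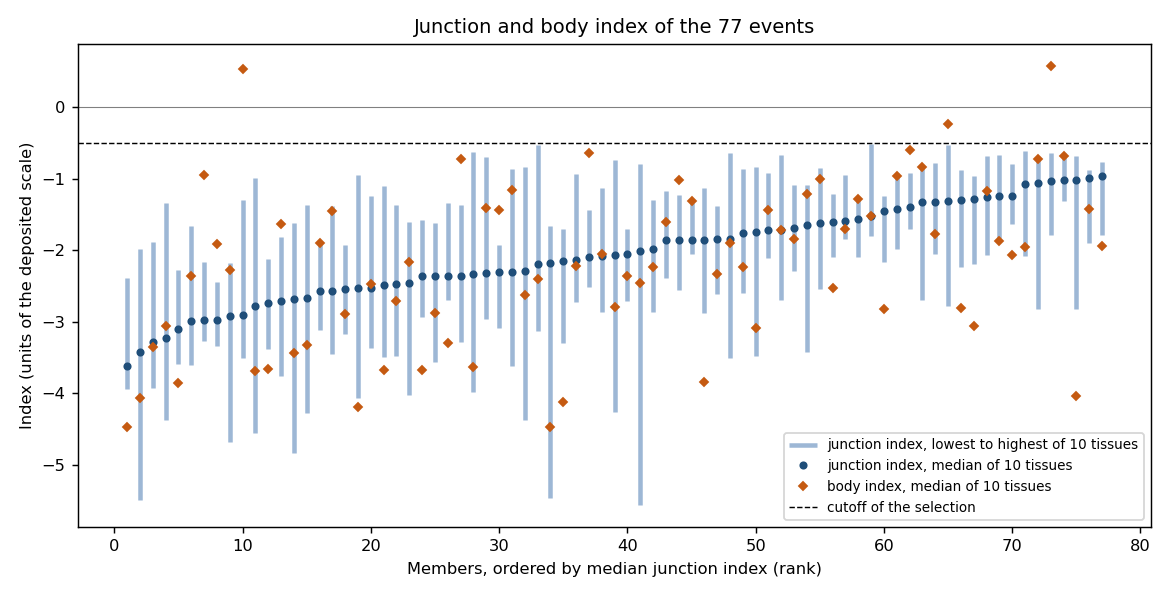
Junction index (bar from the lowest to the highest of 10 tissues, circle at the median) and median body index (diamond) for each of the 77 members, ordered by median junction index, in units of the deposited scale. All bars lie below the dashed cutoff by selection; the body index, which was not selected directly, lies above 0 in 2 members, Ben936 and Ben3204.

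The 4 events named next stood at the low end of the junction index. Ben2021 had the lowest median, -3.62. Its skipping junction read 5.08 in liver, 4.88 in muscle, 4.82 in heart, 4.67 in kidney, 4.66 in spleen, 4.59 in intestine, 4.49 in testis, 4.04 in lung, 3.85 in brain and 3.57 in salivary. Its exon-body probe read between -0.045 in kidney and 0.464 in spleen after centring, so it was among the dimmest probes in every tissue. The highest value of its inclusion junctions was 1.77, for C1:A in salivary.

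Ben1731, with a median of -3.43, showed the same low exon beside far more variable flanks. The mean of its flanks ran from 3.53 in lung to 6.44 in kidney and C1:C2 from 2.59 in spleen to 6.01 in kidney, while A stayed between 0.529 and 1.36. Ben3041 (-3.29) had A between 0.353 and 1.03, and Ben3909 (-3.23) had A between 0.822 and 1.63. In these 4 events the exon body was dim in every tissue, whichever tissues had the brightest flanks.

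The members whose index pattern over the 10 tissues was most like that of Ben2021 were Ben4270, with Pearson's r = 0.88, and Ben2472, with r = 0.86. These values describe 10 tissues that share their arrays and scaling. Ben2472 and its neighbour in number, Ben2471, nearly coincided in the flanking exons and the skipping junction. Over the 10 tissues their values correlated at r = 0.996 in C1, 0.997 in C2 and 0.999 in C1:C2, and differed by at most 0.293, 0.272 and 0.181 units. The inclusion junctions and INT were less alike, with r from 0.709 to 0.791. Their exon-body probes correlated at 0.49, with medians of 1.62 in Ben2471 and 0.895 in Ben2472. Whether these events share flanking exons cannot be read from the table, and both are counted among the 77, which would be 76 with the pair counted once. Ben936 and Ben2238 had a close neighbour too, Ben935 and Ben2239, which were not members. In both of these pairs the C2 and C1:C2 values nearly coincided.

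The edge of the selection was not a gap. Ben2697 and Ben343 lay just inside it, with a highest junction index of -0.519 in brain and -0.523 in testis. Ben953 and Ben3224 lay just outside, with -0.482 in liver and -0.476 in brain. On the flanks, the lowest value was 2.1083 in Ben1116 and 2.1088 in Ben43, just inside, and 2.0997 in Ben3754 and 2.0991 in Ben1791, just outside. A further 24 events reached the cutoff in 9 of the 10 tissues. The tissue that kept them out was brain in 7, muscle in 6 and testis in 5, and none was kept out by kidney, lung or spleen.

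Some members went against the label. The median body index was above 0 in 2 members, Ben936 (0.535) and Ben3204 (0.579), and no lower than in the typical other event in 1 more, Ben3144 (-0.226). In Ben936 the exon body read 4.19 in testis, 3.84 in salivary, 3.65 in lung, 3.5 in spleen, 3.44 in muscle, 3.42 in kidney, 3.35 in liver, 3.29 in intestine, 2.83 in heart and 2.58 in brain. These values were at or above the mean of its flanks in all tissues but brain and liver. Its C1:C2 probe was brighter still, at 3.97 to 5.36, and stood above both flanks in every tissue. The body and junction probes of this event thus gave opposite pictures of the same exon.

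In Ben3204 the exon body was brighter than the flanks in 9 of 10 tissues, and the junctions did not follow it. A read 7.54 in testis, 5.39 in salivary and 2.94 to 4.29 in the remaining tissues. In testis the inclusion junctions stayed at 2.02 for C1:A and 0.973 for A:C2, within their range elsewhere. C1:C2 read 1.90 to 2.66, with a median of 2.33 against 3.54 in the typical member. The junction index of this event had a median of -1.03 and ran from -1.79 to -0.636.

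Single inclusion junctions also departed from their mean. In 9 of the 77 members C1:A or A:C2 was at or above C1:C2 in at least 1 tissue, C1:A in 6 and A:C2 in 3. In Ben851 this was so for C1:A in 9 of 10 tissues, with medians of 5.55 for C1:A and 5.3 for C1:C2, and the low index came from A:C2, at 2.09 to 2.94. Its exon body was also low, with a median of 1.18. In Ben2631 C1:A reached C1:C2 in 7 tissues and in Ben3144 in 5. With the brighter of the inclusion junctions in place of their mean, 47 events met the selection in place of 77.

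The members differed among themselves in how the index moved over tissues. The typical range of the junction index was 1.69 units, against 1.24 in the other events. It was widest in Ben2880, at 4.77, and Ben4076, at 3.80, and narrowest in Ben1429, at 0.680, and Ben363, at 0.717. By contrast, A ranged less over tissues in the members than in the others, by 1.30 against 1.92 units, although the mean of the flanks ranged about as much, by 1.56 against 1.68.

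The skipping junction followed the flanking exons over the tissues, and the exon followed them less. Within each event, Pearson's r over the 10 tissues between C1:C2 and the mean of the flanks had a median of 0.93 in the members and 0.79 in the others. For A and the flanks the median r was 0.29 in the members and 0.90 in the others. For C1:A it was 0.24 against 0.86, and for A:C2 0.23 against 0.89. In the other events, exon and inclusion junctions mostly went up and down with the flanking exons. In the members C1:C2 did so most closely. The low correlation of A was found in the 32 members with A no higher than the median of INT (0.19) and in the 45 members above it (0.33). In 74 of the 77 members the median of A was no higher than the 95th percentile of INT, so both groups held dim exons. These are descriptions across 10 points that share arrays, and the junctions and flanks were used in the selection.

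The index tended to be lowest where the flanks were brightest. The junction index correlated with the mean of the flanks at a median r of -0.69 in the members, with a negative r in 73 of 77, against 0.29 in the others. The exceptions were Ben109, Ben936, Ben1429 and Ben3052. The body index followed the junction index at a median r of 0.80 in the members and 0.33 in the others, while A alone followed it at 0.17 and 0.45. The junction index subtracts C1:C2 and the body index subtracts the flanks, and these moved together in the members (median r 0.93). The correlations of the indices with each other and with the flanks thus come in part from how the indices are formed. Flanks and junctions were also used in the selection.

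**Figure D3:**
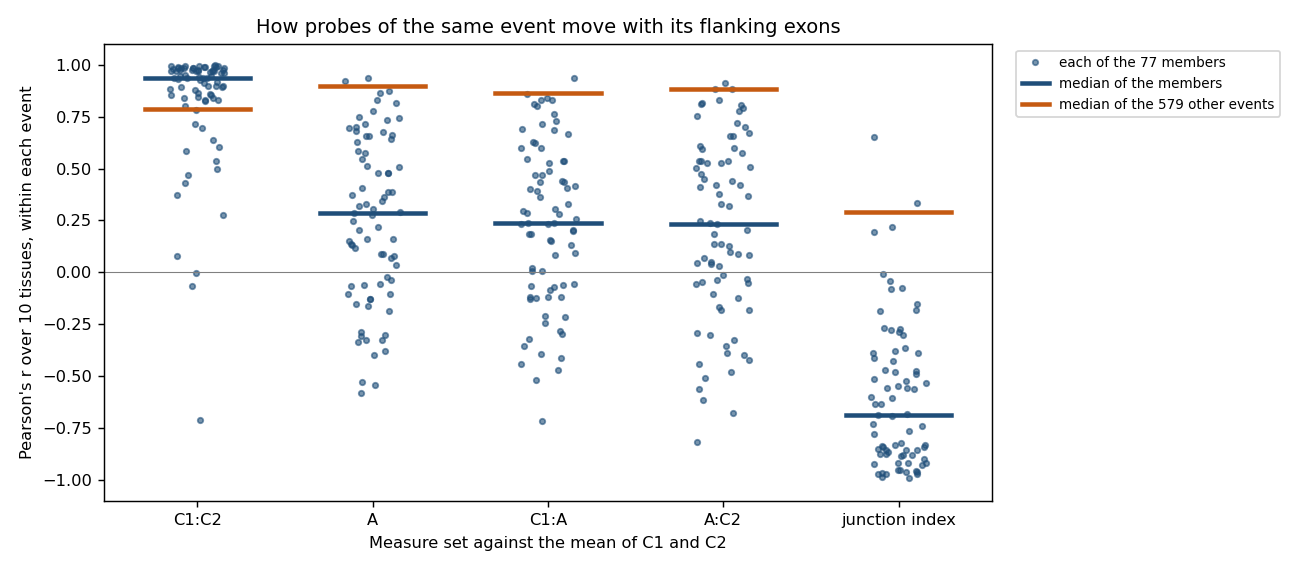
Pearson's r over the 10 tissues, within each event, between the mean of the flanking exons and C1:C2, A, C1:A, A:C2 or the junction index; points are the 77 members, blue lines their median and orange lines the median of the 579 other events. C1:C2 follows the flanks most closely (median 0.93), A follows them less (0.29, against 0.90 in the others), and the index runs against them (-0.69).

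The medians differed little between tissues, and the members did not share 1 order. The median junction index of the members was lowest in liver (-2.26), intestine (-2.25), kidney (-2.19) and heart (-2.13). It was intermediate in lung (-1.99), testis (-1.93) and brain (-1.90), and highest in spleen (-1.83), muscle (-1.81) and salivary (-1.76). The middle 50% of members spanned -3.26 to -1.63 in liver and -2.18 to -1.21 in salivary, so the distance between tissues was small beside the spread among members. The mean of the flanks was highest in liver as well, at 4.01, and 3.48 in salivary, whereas A was 1.62 and 1.55. Liver held the lowest index of 20 members and the highest of 5, and testis the lowest of 10 and the highest of 17. Fewer cells that make a transcript and less of it per cell cannot be told apart in such samples.

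Tissue differences in the exon itself were then sought with A. A value was called where it differed from the median of the other 9 tissues by 4 robust SDs of all such deviations, 2.16 units. That many robust SDs was also used for the body index. All 77 members were tested, with no filter. Only 3 of their 770 values were called higher, 0.39%, against a background of 2.17% over all events and 1.57% in the other events. No value was called lower, against 0.122% and 0.104%. For a lower call the other tissues must read at least 2.16, which held for 26.0% of the values in the members and 84.6% in the others. With a threshold of 3 robust SDs, 8 values were called higher and none lower, but the background was not counted at that threshold.

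The 3 calls were all in testis. With the values as deposited, not centred, 2 remained, since a flanking exon of Ben30 read 2.04 and this event no longer met the selection, although its A deviated by 2.89 units there, past the threshold of 2.175 on that scale. This share of 3.9% of the members is near the background of 4.15% of the other events called higher in testis, and nothing particular to the set is read from it. In Ben3052 the exon body read 4.63 in testis and 0.741 to 1.85 elsewhere. A:C2 rose with it, to 4.45 from at most 1.13 elsewhere, whereas C1:A read 1.41, just above its 1.38 in liver. The skipping junction was also at its highest in testis, at 4.6. The exon was as bright there as its flanks. The junction index was at its highest in testis too, at -1.67 against -3.60 to -2.63 elsewhere, and still met the cutoff.

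In Ben30 the exon body read 4.03 in testis and 0.593 to 2.20 elsewhere, and both inclusion junctions were at their highest, at 3.78 and 3.87. The flanks and C1:C2 were also highest in testis, at a mean of 5.44 and at 5.56, so the index of -1.74 lay within the range of the other tissues. Ben3204, the third, is the event described above whose junctions did not follow its exon. The lowest deviations of A were those of Ben4103 in kidney, at -1.46, and Ben1704 in salivary, at -1.41, and neither was called.

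**Figure D4:**
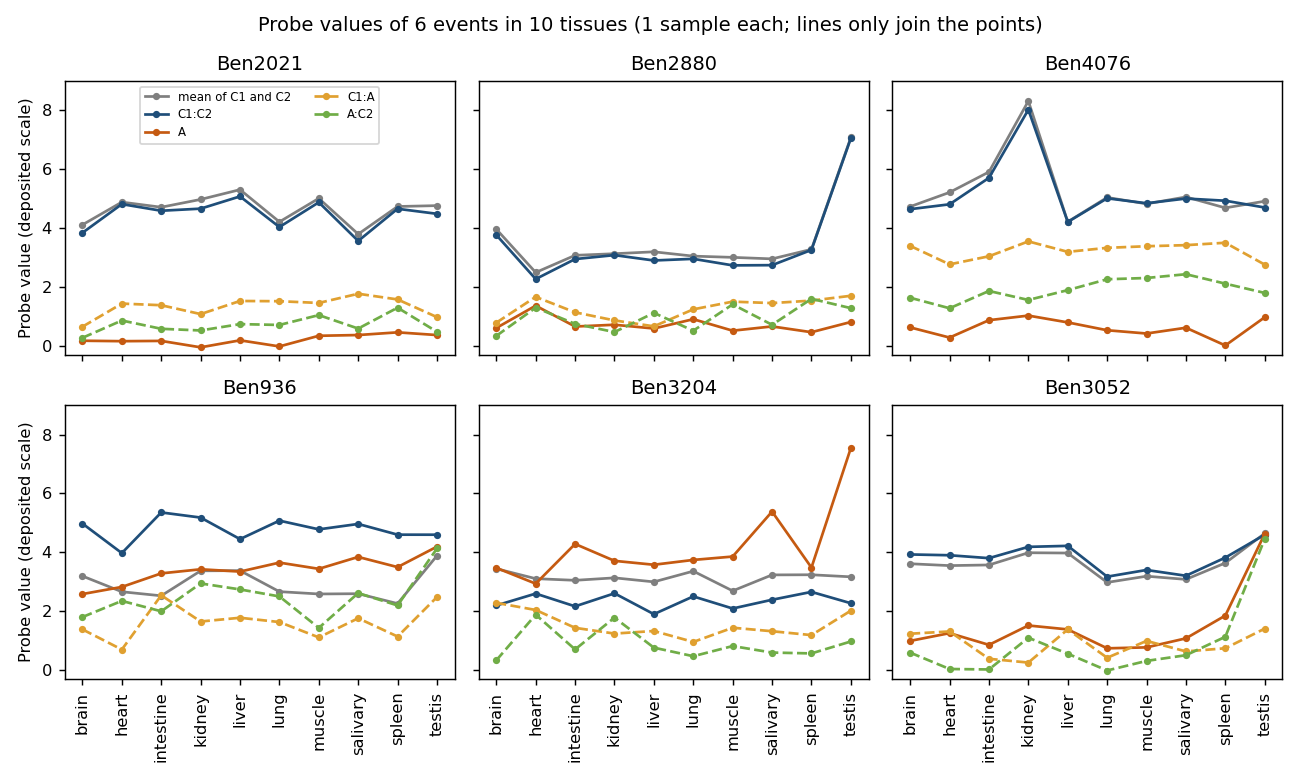
Values of the flanking exons (mean of C1 and C2), C1:C2, A, C1:A and A:C2 in 10 tissues for 6 members, in units of the deposited scale; each point is 1 sample. A stays near the bottom in Ben2021, Ben2880 and Ben4076 while C1:C2 overlies the flanks. In Ben936 and Ben3204 A stands above the flanks in most tissues, and in Ben3052 it rises in testis.

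By the body index, with a threshold of 1.53 units, 20 of the 770 values were called higher and 20 lower, 2.6% each way. The background of these calls was 1.12% higher and 1.41% lower over all events, and 0.812% and 0.691% in the other events. Set against the mean of the other tissues in place of their median, 17 were called higher and 12 lower, with no background counted. The 40 calls fell on 25 members, 14 of them with 1 call, 8 with 2, 2 with 3 and 1 with 4. Testis had 9, kidney 8, liver 6 and brain, heart and salivary 4 each, and in liver all 6 were lower. In the other events testis also had the most calls, 19, followed by brain and heart with 11 each, and kidney and liver had 8 each. The other events were the larger group, so equal counts in a tissue are not equal shares. Their calls in each tissue were not split by direction. The direction of the calls in liver therefore has no background, and nothing particular to the members is read from it. After quantile normalization of the arrays, under which 80 events met the selection, 16 values were called higher (2%) and 10 lower (1.25%), against 0.777% and 0.535% in the other events. The body index thus passed its threshold more often in the members than in the other events under both scalings. The share over all events was not counted after quantile normalization. The index subtracts the flanks, which A followed at a median r of 0.29 in the members and 0.90 in the others. Where A does not follow the flanks the index moves with them, so no change of the exon is read from these shares.

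The flanks moved more than the exon in most of the lower calls and in fewer of the higher ones. The mean of the flanks deviated more than A in 18 of the 20 lower calls (90%) and in 9 of the 20 higher calls (45%), against 27 of 40 (67.5%) and 13 of 47 (27.7%) in the other events. The exon body was dim in the members, so A had less room to fall. A fall of 2.16 units, the threshold for A alone, was possible for 26.0% of their values, against 84.6% in the others. The room for a fall of 1.53 units, the threshold of the body index, was not counted. The shares of lower calls are therefore not read as a like comparison. In the 20 lower calls the flanks were brighter than in the other tissues in all 20, by a median of 1.71 units, and A deviated by a median of -0.169 units. In the 20 higher calls the flanks were dimmer in 14, and A was brighter in 19, with a median deviation of 1.0479 units.

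Of the 6 largest calls, the 4 lower ones had bright flanks, and the higher ones were those of Ben3204 and Ben3052 in testis, described above, in which A moved more. In Ben2880 the body index deviated by -3.85 units in testis. Its flanks read a mean of 7.08 in testis and 2.5 to 3.97 elsewhere, its C1:C2 probe 7.06 and 2.27 to 3.77, and A 0.816 and 0.469 to 1.37. The flanks and C1:C2 in testis stood apart from every other tissue, and A lay within its range elsewhere. Ben4076, which also had the lowest median body index of all members (-4.48, beside -4.47 in Ben2021), had bright flanks in kidney. There the mean of its flanks was 8.32 and C1:C2 8.03, against at most 5.91 and 5.71 elsewhere, and A was 1.03, its highest value, against 0.0186 to 0.976 elsewhere.

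Ben2181 had 4 calls, all lower. The mean of its flanks was 6.20 in liver, 5.93 in kidney, 5.47 in intestine and 5.18 in testis, and 2.90 to 3.84 in the remaining tissues. A was 0.0212, 0.858, 0.440 and 0.423 in those 4 tissues, and -0.018 to 0.723 in the rest. Ben2340 had lower calls in heart, liver and kidney, where the mean of its flanks was 6.15, 6.22 and 5.50. In both events the flanks of the called tissues did not overlap with those of the rest, and the values of A did. The tissues were called on an index that subtracts the flanks, so this split only describes the calls.

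Higher calls of the same kind were those of Ben2471 in brain, lung and salivary and Ben2472 in brain and salivary. In Ben2471 the mean of the flanks was 3.08, 3.42 and 3.67 in these tissues, below the 4.05 to 5.89 of the other 7, and A was 1.76, 1.43 and 1.64, within its range elsewhere. These 5 calls may count a single pair of flanking exons, and with the pair counted once the 40 calls were 38.

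In 13 of the 40 calls A deviated at least as much as the flanks. Apart from Ben3204 and Ben3052, A was brighter in Ben3181, Ben2584 and Ben1704 in kidney, Ben1698 in brain, Ben328 in spleen, Ben344 in heart, Ben4252 in testis and Ben3561 in salivary, by 0.948 to 2.08 units. It was dimmer in kidney in Ben4103 (-1.46) and in Ben1698 (-0.951). None of these passed the threshold for A alone.

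**Figure D5:**
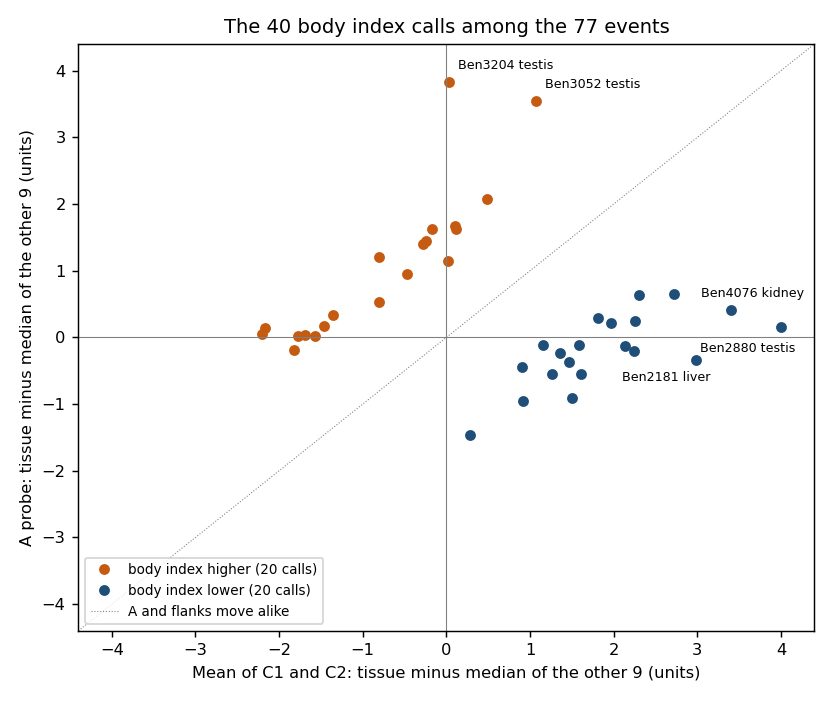
The 40 body index calls among the 77 members, placed by how far the mean of C1 and C2 (x) and the A probe (y) deviated in that tissue from the median of the other 9 tissues, in units of the deposited scale; the dotted line marks equal deviation. Most lower calls lie at bright flanks with A near 0, and the calls at the top, Ben3204 and Ben3052 in testis, are the ones in which A moved by over 3 units.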

How the data were processed

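The authors deposited 1 table with a value for each of 21882 probes in 10 samples, here treated as a score. Per the file headers, its columns are the samples. How they were transformed, background corrected or normalized is not given in the sources used here. Each array was centred on its median and the mean of the array medians was added back. A deviation was the value in a tissue less the median over the remaining 9, and a robust SD is the median absolute deviation scaled to a normal SD, taken over all 3126 events. Selecting and calling were first run on simulated data, with planted members and shifts set clear of the cutoffs. That run checks the computing steps only and tells nothing of events near the edge or of dim probes. The number of arrays, 1 per tissue, limits the precision, and no p-value was computed. Events described were those with the lowest or highest index, body index, range, INT or deviation, those at the edge of the selection, those most like the lowest member, and those with the largest body index calls. Ben109, Ben851, Ben2471, Ben2472, Ben2238, Ben2631, Ben3144 and others named as exceptions were chosen after their values were seen. No gene or marker list was applied, since events carry numbers and no gene names here. The members, lists and rules were chosen with earlier results of these data known. Alternatives were other scalings, cutoffs, indices, comparators and thresholds, and each tissue left out. Figures were drawn with matplotlib 3.10.9 and values computed with scipy 1.17.1, pandas 2.3.3 and numpy 2.4.6 under Python 3.11.15.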

Additional observations from a re-analysis of the deposited data

How the results depend on the processing

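No paired analysis was possible because there was 1 sample per tissue and no result came from a replicated test. For the shifts given here the cause was not tested, although a looser or stricter cutoff, minimum or threshold changes counts by construction. The number of members was 126 with an index cutoff of 0, 42 with -1, 159 with a flank minimum of 1.6, 38 with 2.6 and 47 with the higher inclusion junction. It was 77 to 98 with a tissue left out of the selection. The gap in body index to the other events, -1.91, kept its sign in the alternatives run. It was -1.51 with a cutoff of 0, -2.06 with -1, -1.28 with a minimum of 1.6, -2.20 with 2.6, -1.73 with C1:A alone and -1.67 with A:C2 alone. It was -1.75 against the lower flank, -1.68 for A alone and -1.96 to -1.85 with a tissue left out and the 77 members kept. A shift here was counted as one when it passed the SD over tissues of the members' median, 0.136 units. The A calls numbered 8 at 3 robust SDs and 2 as deposited, where Ben30 left the set. The body index calls numbered 29 (17 higher, 12 lower) against the mean of the other tissues, 26 after quantile normalization, 88 and 15 at 3 and 5 robust SDs, 90 with a threshold taken from the 656 events and 35 to 42 with a tissue left out of the comparator. The typical range of the junction index in the same 77 members was 1.32 to 1.69 with a tissue left out, lowest without testis. Counting Ben2471 and Ben2472 once was chosen after seeing the data. Shares called in the other events were counted for the main setting and, for the body index, after quantile normalization only. Call counts under the remaining settings therefore have no background beside them. Exon and inclusion junction values near the dimmest probes limit how far differences in A can be seen.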
